A study of Mus musculus with 12 samples.

Results

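Loss of LSD1 was followed across every culture of the series. All 6 LSD1cKO libraries were compared with all 6 LSD1WT libraries, which together are 12 of 12 samples of the series, with the culture as a covariate. The members of each group were taken from the library names, and the culture from the sample titles. The cells were preosteoclasts grown for 2 days in M-CSF and RANKL from the bone marrow of female mice, and poly(A) RNA was sequenced. Each genotype had 2 libraries per culture. The cultures were mandible marrow after 7 days of ligature-induced periodontitis, femur marrow of mice ligated in the same way, and femur marrow of mice without a ligature. LSD1cKO mice carried floxed Lsd1 deleted by LysM-Cre, a Cre driven from the Lyz2 locus and so active in the myeloid lineage. Whether LSD1WT mice carried the Cre was not given in the sources used here. The labels gave an age of 2 months, whereas the sequencing methods stated 3 months. By the mouse numbers in the labels, the 12 libraries came from 9 mice, 5 LSD1WT and 4 LSD1cKO. By those numbers, 1 LSD1WT and 2 LSD1cKO ligated mice each gave marrow of both bones.

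LSD1 is the product of Kdm1a and takes methyl groups off lysines 4 and 9 of histone H3. It works in a complex with the CoREST proteins and the deacetylases HDAC1 and HDAC2, and it is brought to DNA in blood cells by the repressors GFI1 and GFI1B. Osteoclasts form when RANKL acts on myeloid precursors kept alive by M-CSF, and type I interferon is known to restrain that step.

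The libraries held 21375805 to 32526751 assigned counts, with a median of 26364586. Both femur LSD1WT replicate 2 libraries, from 2 mice, stood apart. Summed osteoclast markers were 67.0 and 145 CPM (TMM-scaled counts relative to library size) in them, against 25383 to 40298 CPM in the other 4 LSD1WT libraries and 11329 to 28625 CPM in the 6 LSD1cKO libraries. Their summed macrophage markers were 14121 and 11041 CPM, against 2074 to 3569 CPM in the other 4 LSD1WT libraries and 1626 to 4740 CPM in LSD1cKO. In bulk RNA, fewer cells of a type and less RNA per cell cannot be told apart. The mandible LSD1WT pair differed little, with a biological coefficient of variation of 0.0246 against 0.0965 to 0.716 in the other 5 pairs. That difference was still above sampling noise, with 12.3% of genes at an unadjusted chi-square p under 0.05 where noise alone gives 5%. The test compares the pair with count sampling alone, so it cannot tell whether the 2 libraries came from different mice. One library of that pair, replicate 3, is titled as mandible but carries a femur library name, and it was kept as mandible. Counts over gene lists are given with all 12 libraries and, where they moved, with the 10 that remain without these 2.

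Kdm1a itself was lower in every LSD1cKO library. It was at 71 and 71.3 CPM in LSD1WT mandible cultures, 66.8 and 70.1 CPM in ligated and 61.2 and 68.4 CPM in unligated femur cultures. In LSD1cKO the same cultures held 24.3 and 22.1, 15.6 and 17.8, and 20.3 and 16.9 CPM. The genotypes did not overlap. The fold change was −1.82 on the log2 scale (SE 0.105, adjusted p = 3.56e-05 by edgeR's quasi-likelihood test), a 3.52-fold decrease, and gene-level counts do not show which exons the remaining reads came from.

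Over the 3 cultures, 544 of 15425 genes tested (3.53%) passed an adjusted p under 0.05, and most of them were higher in LSD1cKO. There were 462 higher genes (3.00%) and 82 lower genes (0.532%). The share of higher genes among the calls was 84.9%. At an unadjusted p under 0.05, 2479 genes were counted. The median log2 fold change of all genes was −0.06, and 40.9% of all genes lay above 0.

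A gene was taken as shared when it was called and when, inside each of the 3 cultures, both LSD1cKO libraries lay on the same side of both LSD1WT libraries. This left 446 shared higher and 76 shared lower genes, or 96.5% and 92.7% of the calls. Over all genes, 5.17% met the separation above LSD1WT in each culture and 3.20% the separation below. Of the shared genes, 227 higher and 37 lower had all 6 LSD1cKO libraries beyond all 6 LSD1WT libraries whatever the culture, which 1.98% and 0.797% of all genes did. The call and the separation used the same 12 libraries, so these shares describe the called genes and do not test sharing. The shared higher genes rose by a median log2 fold change of 1.82 (range 0.38 to 4.78), and 369 of them by at least 1. The shared lower genes changed less, with a median of −0.75 (range −2.58 to −0.38) and 20 of them by at least 1 in size.

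The median effect on the shared higher genes was 1.71 in the mandible, 1.84 in femur marrow of ligated and 1.70 of unligated mice on the log2 scale. For the shared lower genes these medians were −0.65, −0.85 and −0.69. Because sharing required every culture to move the same way, these medians describe the chosen genes and test nothing. The plot of effects by culture sets the 3 effects of each gene beside one another.

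**Figure D1:**
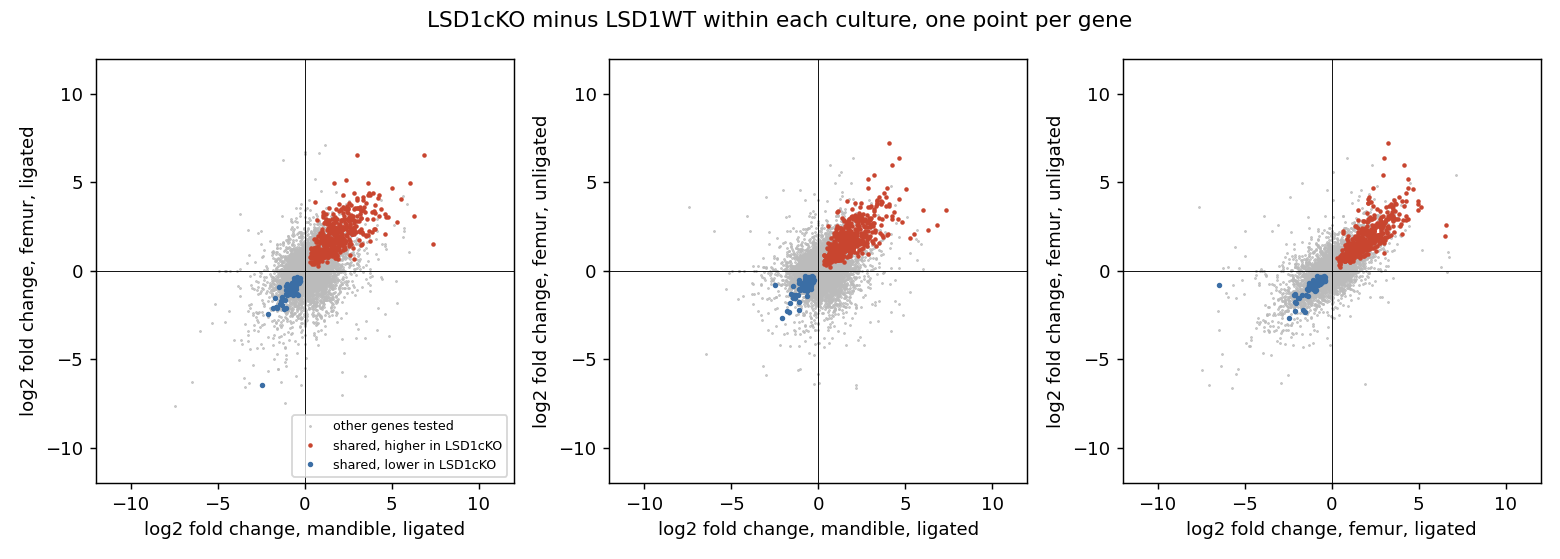
Log2 fold change of LSD1cKO over LSD1WT in one culture (x axis) against another (y axis), one point per gene tested. The 446 shared higher genes (red) lie in the upper right and the 76 shared lower genes (blue) in the lower left of each panel, while other genes (grey) spread to all 4 quadrants.

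To read a culture that had no part in the call, genes were called on the 8 libraries of 2 cultures and then looked up in the third. Of 227 genes called higher in the mandible and ligated femur, 227 were higher in the unligated femur and 201 (88.5%) were separated there, against 9.74% of all genes. Of 34 genes called lower in those cultures, 28 were lower in the unligated femur and 19 (55.9%) were separated, against 8.49% of all genes. Of 131 genes called higher without the ligated femur, 126 (96.2%) were separated in it, against 14.6% of all genes, as were 3 of 3 called lower, against 19.6%. Calls from the 2 femur cultures alone were few, 21 higher and 1 lower, of which 19 and 1 were separated in the mandible, against 34.7% and 34.6% of all genes. The mandible and ligated femur shared 3 mice, so the cultures are not fully independent.

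By edgeR's quasi-likelihood interaction test, no gene (0%) had an LSD1cKO effect that differed between the 3 cultures at an adjusted p under 0.05. At an unadjusted p under 0.05 there were 75 genes (0.486%), fewer than the 5% that pass where no gene differs. Without both femur LSD1WT replicate 2 libraries the count at an adjusted p under 0.05 was again 0, with 1033 of 16008 genes at an unadjusted p under 0.05. A missed threshold does not show that the cultures responded alike. Within a single culture, 0 genes passed in the mandible, 1 in ligated and 0 in unligated femur cultures. Of 15425 genes tested, 744, 1061 and 763 were at an unadjusted p under 0.05, where 5% pass if no gene differs. These unadjusted counts are therefore not read as effects.

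How many genes were called depended on which libraries entered. Without both femur LSD1WT replicate 2 libraries, called the 10-library fit here, 2307 of 16008 genes (14.4%) were higher and 1560 (9.75%) lower, and all 544 genes called with 12 libraries were among them in the same direction. That changed the share of higher genes to 59.7%. With the 8 femur libraries alone, 21 were higher and 1 lower. Summing the mandible LSD1WT pair into 1 library gave 312 higher and 23 lower, and placing the library with conflicting labels in the ligated femur gave 329 higher and 19 lower. Leaving out ligated femur LSD1cKO replicate 2 gave the fewest calls of any single omission, 283 higher and 15 lower. Under every one of these fits each of the 544 genes that could be tested kept its direction. The plot of calls by setting shows all fits.

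**Figure D2:**
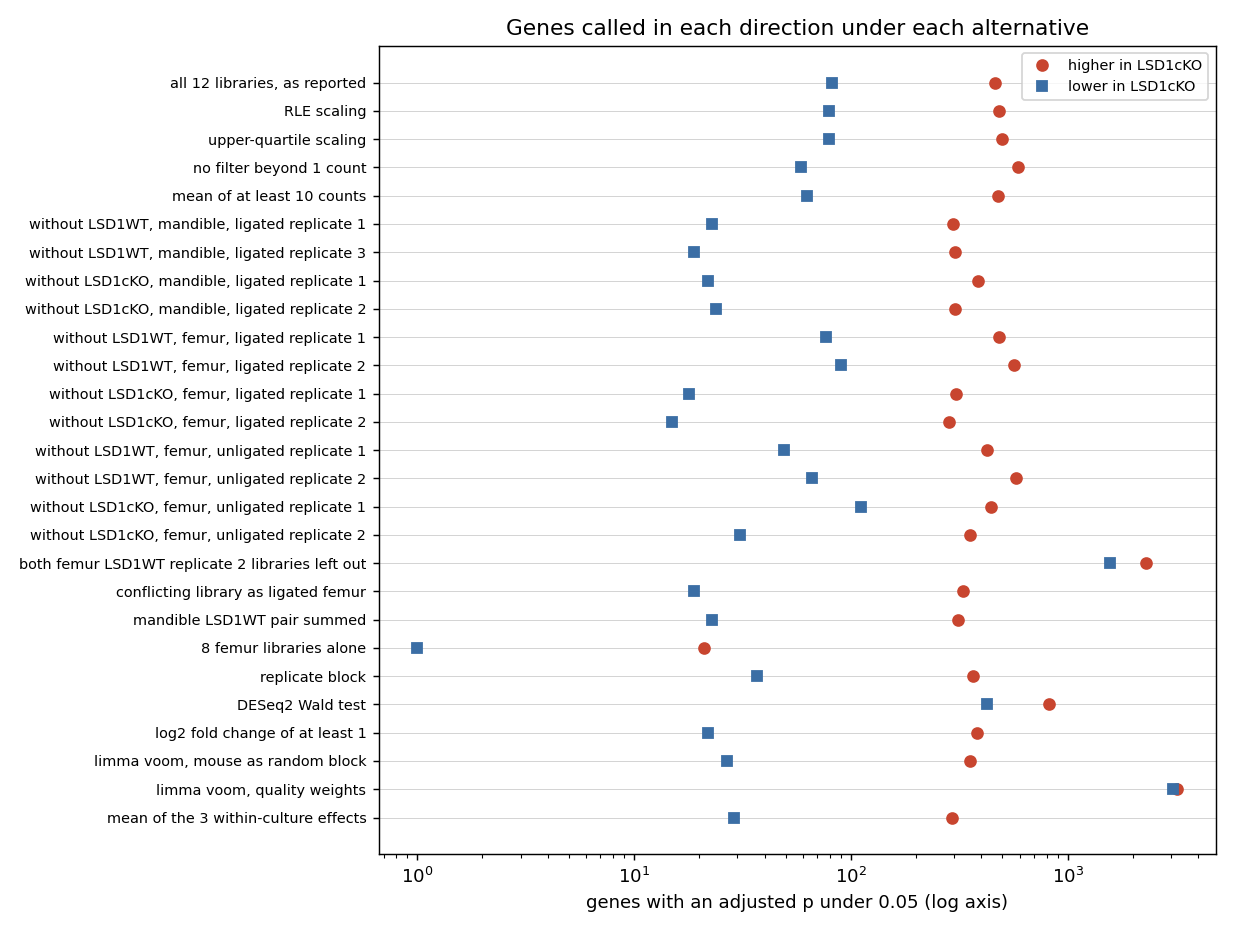
Number of genes with an adjusted p under 0.05 (log axis) higher (red circles) or lower (blue squares) in LSD1cKO under each alternative. The lower genes range from 1 with the 8 femur libraries alone to 3075 with quality weights, and higher genes from 21 to 3210.

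The 12 higher genes with the smallest p are described first. Bst1, a surface ADP-ribosyl cyclase of stromal and myeloid cells, was at 3.96 and 4.0 CPM in LSD1WT mandible cultures, 7.73 and 5.34 CPM in ligated and 8.25 and 3.93 CPM in unligated femur cultures. In LSD1cKO it was at 31.4 and 42.5, 62.9 and 73.1, and 53.6 and 54.8 CPM. The groups did not overlap, and Bst1 rose 9.5-fold (log2 3.25, SE 0.194, adjusted p = 3.56e-05). Ly6a, the stem cell antigen Sca-1, ranged from 1.75 to 12.9 CPM (median 5.56) in LSD1WT and from 58.7 to 277 CPM (median 159) in LSD1cKO. It rose 27.4-fold (log2 4.78, SE 0.303), again without overlap. Spn, the leukocyte sialoglycoprotein CD43, rose 5.5-fold, from a median of 27.6 CPM (23 to 34.3) to 156 CPM (115 to 185).

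Further genes moved in the same way. Cd24a, a glycan-bearing marker of immature cells, rose 3.31-fold, from 11.9 to 19.3 CPM in LSD1WT to 47 to 60.7 CPM in LSD1cKO. Clec5a, an activating lectin receptor of myeloid cells, rose 3.48-fold, and its 6 LSD1cKO values (72.7 to 115 CPM) all lay above its 6 LSD1WT values (22.7 to 32.3 CPM). Mmp25, a membrane-anchored metalloproteinase known from neutrophils, rose 6.74-fold, from 0.294 to 0.647 CPM to 2.19 to 3.73 CPM. None of these 3 overlapped between genotypes, and neither did Slc16a3, the lactate exporter MCT4, which rose 2.63-fold from 17.4 to 22.9 CPM to 49.8 to 71.4 CPM. Bicd1, a dynein cargo adaptor, rose 8.17-fold and Armcx2, an armadillo-repeat protein, 14.3-fold. The plot of single genes shows each library.

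**Figure D3:**
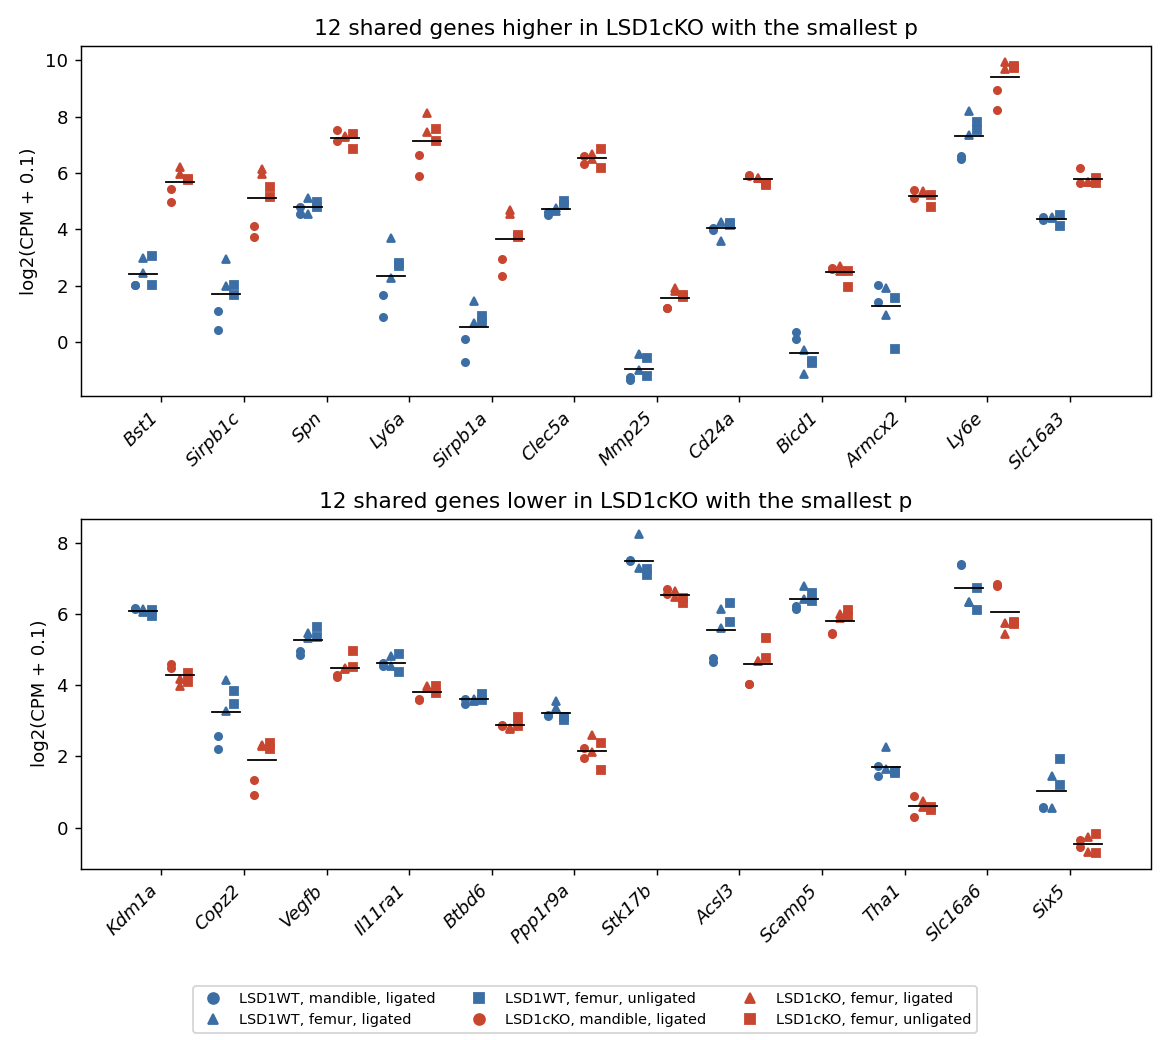
Log2(CPM + 0.1) of the 12 shared higher and the 12 shared lower genes with the smallest p, one point per library and a bar at the genotype mean of 6 libraries. In the upper panel every red LSD1cKO point lies above every blue LSD1WT point of the same gene. In the lower panel the genotypes overlap across cultures for Copz2, Vegfb, Acsl3 and Slc16a6. Separation within each culture was required of shared genes.

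Genes of the Ly6 and paired-receptor families were among the calls. Of 5 tested Ly6 surface proteins on the list, 3 rose, Ly6a, Ly6e and Ly6i, and the list median was 2.05 against −0.06 for all genes. Ly6e, a GPI-anchored surface protein, went from 89.5 to 292 CPM in LSD1WT to 301 to 981 CPM in LSD1cKO. Of 28 tested sialic acid, SIRP and inhibitory receptor genes, 9 rose, 0 fell and 19 did not pass, with a median of 0.56, and in the 10-library fit 22 rose with a median of 1.58, against 14.4% of all genes higher. Sirpb1c and Sirpb1a, activating members of the SIRP family, rose 10.7-fold and 9.27-fold. Lilra6, a leukocyte Ig-like receptor, rose 7.78-fold, from 2.53 to 12.6 CPM to 43 to 83.1 CPM. Counting shared genes by symbol, which was chosen after the values were seen, all 7 tested Pira and Pirb genes, all 3 Sirpb1 genes, all 3 Pilr genes and all 4 C1r and C1s genes were shared and higher. By comparison, 446 of all 15425 genes tested were. Among other families counted, 7 of 226 tested Slc, 5 of 348 Zfp, 5 of 43 Trim, 7 of 25 H2, 4 of 12 Parp and 4 of 8 Ly6 genes were. Members of the first 4 families, the Ly6 genes and the H2-Q genes include close copies of one another, and reads could be split between them, so the value of any one copy is uncertain.

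The interferon response genes formed the largest listed group among the shared genes. Of 67 tested members, 45 rose, 0 fell and 22 did not pass, against 3.00% of all genes higher and 0.532% lower. All 67 had a log2 fold change above 0, the median was 1.88, and 43 of the 45 were shared. The list made up 9.64% of the shared higher genes and 0.434% of all genes tested. Its median was 1.95 in the mandible (65 of 67 above 0), 1.99 in ligated (67 of 67) and 1.74 in unligated femur cultures (66 of 67). Without both femur LSD1WT replicate 2 libraries, 64 rose, against 14.4% of all genes, and the median was 2.54. The study itself followed interferon genes, so the list's direction is not independent evidence.

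Isg15, a ubiquitin-like modifier, was at 1.14 and 1.36 CPM in LSD1WT mandible cultures and 2.2 and 6.71 CPM in LSD1cKO. Ligated femur cultures held 6.37 and 18.9 against 105 and 182 CPM, and unligated femur cultures 12.9 and 10.2 against 55.4 and 76.3 CPM. The genotypes separated within each culture, as required of shared genes, but overlapped across cultures. The lowest values of both genotypes were in the mandible. Isg15 rose 6.28-fold (log2 2.65, SE 0.408, adjusted p = 0.00646). Irf7, the transcription factor that amplifies interferon production, rose 6.55-fold, from 1.8 to 72.1 CPM (median 22.4) in LSD1WT to 4.53 to 390.4 CPM (median 211) in LSD1cKO.

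Other named members were Oasl1, Slfn1, Isg20 and Cxcl11. Oasl1, an oligoadenylate synthetase-like protein, rose 8.05-fold (log2 3.01, SE 0.364). Slfn1, a schlafen protein, rose 18.1-fold, Isg20, an exonuclease acting on viral RNA, 7.64-fold, and Cxcl11, a ligand of CXCR3, 21.5-fold from LSD1WT levels of 0 to 0.153 CPM. Cxcl11 held at most 4 counts in any LSD1WT library, so the size of its fold is uncertain. Of 13 tested interferon ligands, receptors and regulators, Socs1, a feedback inhibitor of JAK kinases, was the one called with 12 libraries (log2 1.17). In the 10-library fit 9 were higher and 1 lower, against 14.4% and 9.75% of all genes, with a median of 0.62. The plot of interferon genes gives the members by culture.

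**Figure D4:**
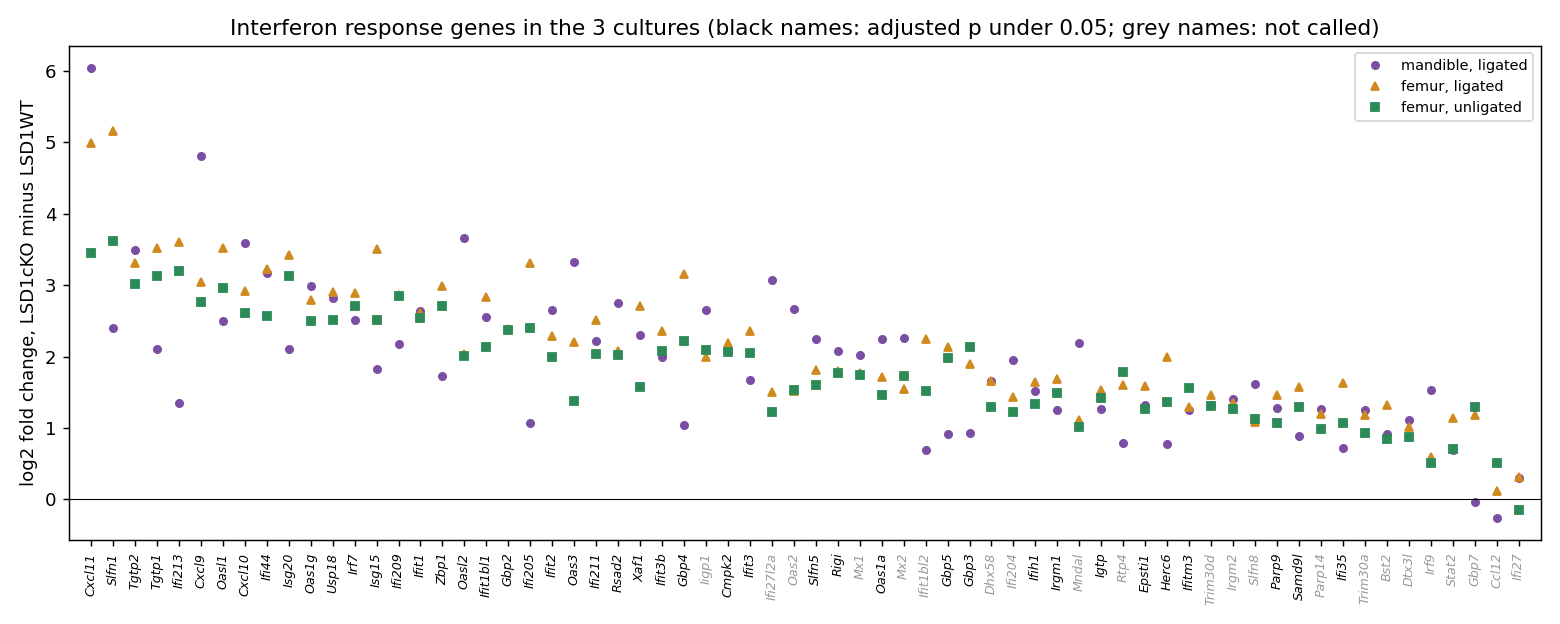
Log2 fold change of 66 of the 67 tested interferon response genes in the mandible (purple), ligated femur (orange) and unligated femur (green), ordered by the effect over the 3 cultures. All points lie above 0 other than 2 in the mandible and 1 in unligated femur cultures.

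The promoters of these genes are shown because most of them carry the letters of an interferon-stimulated response element. Windows of 300 bases, 250 before and 50 after each annotated start, were taken from RefSeq (GRCm38.p6, an earlier build than the GRCm39 used for the counts) and matched by symbol for 10578 of the 15422 symbols tested. A gene held a motif when any of its windows did, and 8451 genes had 1 window. On either strand, GAAANNGAA was found in 25 of 37 shared higher interferon list genes with a window (67.6%), in 39 of 294 other shared higher genes (13.3%), in 1 of 66 shared lower genes (1.52%) and in 8.94% of all genes. The 250 bases before the start are given below for the 4 shared list genes with the smallest p among those with 1 window and a match in it, with the match in capitals.

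Tgtp2, GRCm38.p6 chr11:49064213-49064462, minus strand: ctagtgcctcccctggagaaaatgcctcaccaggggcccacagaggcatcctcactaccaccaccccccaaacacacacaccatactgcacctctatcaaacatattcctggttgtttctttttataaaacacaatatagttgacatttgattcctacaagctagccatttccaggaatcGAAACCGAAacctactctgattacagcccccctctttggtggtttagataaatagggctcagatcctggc
Ifi211, GRCm38.p6 chr1:173913047-173913296, minus strand: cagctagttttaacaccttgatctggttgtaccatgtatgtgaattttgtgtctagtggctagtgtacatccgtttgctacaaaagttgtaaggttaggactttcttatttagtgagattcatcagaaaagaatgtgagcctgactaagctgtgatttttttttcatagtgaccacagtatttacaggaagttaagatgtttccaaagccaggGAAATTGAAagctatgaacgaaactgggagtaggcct
Oas1g, GRCm38.p6 chr5:120887614-120887863, minus strand: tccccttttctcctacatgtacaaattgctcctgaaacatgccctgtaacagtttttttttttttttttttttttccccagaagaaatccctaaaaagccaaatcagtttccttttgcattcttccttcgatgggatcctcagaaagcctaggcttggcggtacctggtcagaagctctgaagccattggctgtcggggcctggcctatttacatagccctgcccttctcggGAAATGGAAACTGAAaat
Isg15, GRCm38.p6 chr4:156200819-156201068, minus strand: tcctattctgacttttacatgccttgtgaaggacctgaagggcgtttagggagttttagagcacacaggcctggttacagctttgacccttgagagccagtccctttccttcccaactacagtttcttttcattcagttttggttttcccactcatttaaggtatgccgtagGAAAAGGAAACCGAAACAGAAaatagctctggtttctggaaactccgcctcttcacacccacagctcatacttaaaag

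Tgtp2, a T cell-specific GTPase with a near-identical neighbour Tgtp1, held 1 match, ending 61 bases before the start, and Ifi211, of the HIN-200 family, 1, ending 28 bases before. Oas1g, an oligoadenylate synthetase, held 2 overlapping matches ending 3 bases before the start, and Isg15 held 3 ending 57 bases before it. Tgtp2 rose by 3.23, Ifi211 by 2.25 and Oas1g by 2.75 on the log2 scale. Other motifs searched on both strands were less unequal. The PU.1 letters GAGGAAG were in 26.5% of other shared higher genes, in 10.8% of shared higher interferon list genes, in 18.2% of shared lower genes and in 16.5% of all genes. The AP-1 letters TGANTCA, which read the same on both strands, were in 32.4% of shared higher interferon list genes, 9.18% of other shared higher genes and 6.69% of all genes. The GFI1 core AAATCAC was in 3.62% of shared higher genes and 2.6% of all genes, and the NF-kappaB letters GGGANTTCC in 2.12% and 2.74%. These are matches of letters, not sites, and GAAANNGAA and GAGGAAG can share bases.

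Antigen presentation genes rose in part. Of 15 tested class I processing genes, 8 rose and 0 fell, against 3.00% of all genes higher and 0.532% lower. All 15 lay above 0, and the median was 0.77. Psmb8, an immunoproteasome subunit, rose 1.9-fold, from 95.3 to 149 CPM to 144 to 319 CPM, Tapbp, which loads peptide on class I, 1.77-fold, and Nlrc5, the class I transactivator, 2.83-fold. H2-Q7, a nonclassical class I gene, rose 11.6-fold from LSD1WT levels of 0.166 to 0.458 CPM. Of 12 tested class II genes, 3 rose, Cd74, H2-Oa and H2-Eb2, and the median was 1.00. With 10 libraries, 13 class I and 7 class II genes rose, against 14.4% of all genes. Cd74, the class II invariant chain, went from a median of 145 CPM to 493 CPM (log2 1.51, SE 0.323, adjusted p = 0.0294), and lost its call in 11 of 26 alternative fits. For H2-Eb2, all LSD1WT libraries held 3 counts or fewer, and it was at least 2.56-fold higher when each LSD1WT library was set to a floor of 3 counts.

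Inflammatory genes were less uniform. Of 14 tested M1-like markers, 6 rose and 0 fell, with a median of 1.53, and in the 10-library fit 11 rose with a median of 1.89. With 12 libraries 0 of 12 M2-like markers passed and their median was −0.33, whereas in the 10-library fit 3 rose and the median turned to 0.58. Acod1, which makes itaconate, rose 4.91-fold from 1.24 to 3.64 CPM to 4.5 to 18.5 CPM. Ptgs2, the inducible cyclooxygenase, rose 3.05-fold, Ido1, which degrades tryptophan, by 2.85 on the log2 scale (its call was lost in 11 of 26 alternative fits), and Cxcl10, another CXCR3 ligand, 8.02-fold. Of 19 tested inflammatory cytokines and chemokines, Ccl5 and Cxcl16 rose and the median was −0.18, which turned to 1.05 in the 10-library fit with 10 higher and 2 lower. Cxcl16, a membrane-bound chemokine, rose 3.79-fold, from 22.9 to 89.9 CPM to 124 to 199.8 CPM. With 12 libraries, Casp1 and Nlrc5 rose among 21 inflammasome and interleukin-1 genes and Tlr3 among 22 Toll-like receptor genes, with medians of 0.40 and 0.06. In the 10-library fit 13 and 15 of them rose, with medians of 0.94 and 1.16. Casp1 lost its call in 11 of 26 alternative fits and Tlr3 in 7. Of 11 cytosolic nucleic acid sensors and 14 chemokine receptors, 0 passed with 12 libraries by edgeR's quasi-likelihood test, and 8 and 11 were higher in the 10-library fit, with medians of 0.72 and 1.31 and 1 receptor lower. The share of all genes higher in that fit was 14.4%.

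A list of genes also measured by qRT-PCR was chosen by the study itself and is not independent evidence. Of 14 tested members, 7 rose, Ifit1, Ifit2, Ifit3, Oasl2, Acod1, Alox5 and Abcg2, and 0 fell. Of all genes, 3.00% rose and 0.532% fell. Of 26 alternative fits, Ifit3 lost its call in 14, Oasl2 in 13 and Ifit2 in 4, among them the fit with the mouse as a random block for Oasl2 and Ifit2 and the replicate block for Ifit3. Ifit1, Ifit2 and Ifit3, which bind foreign RNA, rose by 2.59, 2.29 and 2.07 on the log2 scale. Alox5, the 5-lipoxygenase of leukotriene synthesis, rose 2.37-fold from 9.11 to 21.1 CPM to 24.7 to 48.4 CPM, and Abcg2, a drug and urate exporter, 2.67-fold from 5.92 to 13.3 CPM to 18.6 to 30.9 CPM. The other 7, Nlrp3, Hif1a, Abca3, Abcb1b, Cyp27a1, Cyp1b1 and Alox15, did not pass. Nlrp3, the inflammasome sensor, had a log2 fold change of −0.01 with 12 libraries and of 1.72 (adjusted p = 3.94e-05 by edgeR's quasi-likelihood test) without both femur LSD1WT replicate 2 libraries. In that fit 13 of the 14 were called higher, against 14.4% of all genes.

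Among the partners of LSD1, Gfi1b was the one called with 12 libraries. It was at 3.92 and 3.67 CPM in LSD1WT mandible cultures, 4.07 and 0.257 CPM in ligated and 4.05 and 0.0828 CPM in unligated femur cultures. In LSD1cKO it was at 46.8 and 57.6, 38.4 and 47.3, and 46.6 and 41.8 CPM. Every LSD1cKO value lay above every LSD1WT value, and the lowest values were in the femur LSD1WT replicate 2 libraries. Gfi1b rose 17.7-fold (log2 4.15, SE 0.706, adjusted p = 0.0106), and by 3.62 on the log2 scale without those libraries. Its relative Gfi1 did not pass (log2 0.33, adjusted p = 0.691). Of 17 listed genes, Gfi1b rose, Kdm1a fell and 15 did not pass with 12 libraries. In the 10-library fit 2 of the 17 were higher and 4 lower, against 14.4% and 9.75% of all genes.

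Of 35 tested myeloid transcription factors, 4 rose and 0 fell, with a median of −0.17. Klf4, a factor of monocyte differentiation, rose 3.05-fold from 9.6 to 16.1 CPM to 29.3 to 41.3 CPM, without overlap. Lmo4, a LIM-domain cofactor, rose 1.68-fold, from 20.6 to 28.7 CPM to 36.8 to 46.3 CPM, and Cebpe, a factor of granulocyte maturation, 3.89-fold from 0.58 to 1.83 CPM to 3.54 to 7.93 CPM. Runx2, known from osteoblasts, also passed (log2 0.86, SE 0.204, adjusted p = 0.0469), but lost its call in 15 of 26 alternative fits, 9 of which left out 1 library. In the 10-library fit 17 of the 35 rose (14.4% of all genes did) and the median was 0.60. Csf2rb2, a beta chain of the interleukin-3 receptor, was the only one of 20 tested RANK and M-CSF signalling genes to pass with 12 libraries, rising 1.65-fold, and in the 10-library fit 6 rose and 2 fell.

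Of the 76 shared lower genes, 4 (5.26%) were on a program list, against 4.29% of all genes tested. After Kdm1a, the smallest p belonged to Copz2, a subunit of the COPI vesicle coat. It was at 4.49 and 5.83 CPM in LSD1WT mandible cultures against 2.44 and 1.79 CPM in LSD1cKO. Ligated femur cultures held 9.57 and 17.6 against 4.86 and 4.78 CPM, and unligated femur cultures 10.9 and 14.2 against 5.13 and 4.54 CPM. The groups separated in each culture, as required of shared genes, and overlapped across them. The decrease was 2.61-fold (log2 −1.39, SE 0.183, adjusted p = 0.0038 by edgeR's quasi-likelihood test). Vegfb, a growth factor of the VEGF family, fell 1.72-fold, from a median of 40.3 CPM to 21.9 CPM. Il11ra1, the interleukin-11 receptor, fell 1.78-fold, and its LSD1cKO values (11.9 to 15.6 CPM) all lay below its LSD1WT values (20.6 to 29.4 CPM).

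Btbd6, an adaptor of a cullin ubiquitin ligase, fell 1.65-fold, from 11 to 13.4 CPM to 6.72 to 8.52 CPM, and Ppp1r9a, a scaffold of actin and protein phosphatase 1, 2.08-fold, from 8.06 to 11.6 CPM to 2.97 to 6.02 CPM. Stk17b, a death-associated serine kinase, fell 1.97-fold, from 138 to 301 CPM to 78.5 to 104 CPM. The genotypes did not overlap for these 3. Tgfbr2, the type II TGF-beta receptor, Plcg1, the phospholipase C of receptor tyrosine kinases, and Kdm3a, a demethylase of histone H3 lysine 9, were chosen after their values were seen. Tgfbr2 fell 1.77-fold, from 267 to 347 CPM to 126 to 244 CPM, and the log2 fold changes of Plcg1 and Kdm3a were −0.72 and −0.50.

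Acsl3, which activates long-chain fatty acids, fell 1.95-fold, from a median of 51.4 CPM to 25.6 CPM. Slc16a6, a transporter of the monocarboxylate family, fell 1.6-fold, Scamp5, a secretory carrier protein, 1.54-fold, Tha1, a threonine aldolase, 2.22-fold, and Six5, a homeobox factor, 3.13-fold. Among the decreases of largest size, Lamb1, a laminin chain, had LSD1WT values of 0.0828 to 1.39 CPM and LSD1cKO values of 0 to 0.309 CPM (log2 −2.58, adjusted p = 0.0429 by edgeR's quasi-likelihood test). It lost its call in 13 of 24 alternative fits. P4ha2, a collagen prolyl hydroxylase, fell 4.17-fold, from 3.17 to 11.5 CPM to 0.996 to 1.73 CPM. Cspg5, a proteoglycan of the nervous system, fell 5.27-fold, Pld6, a mitochondrial phospholipase, 3.62-fold, and Ephb6, a kinase-dead ephrin receptor, 3.17-fold.

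By GENCODE gene type, 88.5% of the shared higher and 97.3% of the shared lower genes with a type were protein-coding, against 83.0% of all genes. Of the shared higher genes, 151 (33.9%) averaged under 1 CPM in LSD1WT, against 6.58% of the shared lower genes and 19.5% of all genes, and 46 still did in LSD1cKO. Zbtb32, a repressor of lymphoid cells, and Mall, a membrane-raft protein, were among the largest increases, with Zbtb32 at 0.0382 to 0.55 CPM in LSD1WT and 2.1 to 7.42 CPM in LSD1cKO. Cend1 and Atp8b5 held at most 1 and 2 counts in any LSD1WT library and were at least 3.22-fold and 2.95-fold higher against a floor of 3 counts in each LSD1WT library.

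Osteoclast genes gave few calls with all 12 libraries and many without the 2 that nearly lacked them. Of 29 osteoclast function genes, only Plekhm1, a regulator of lysosome fusion at the ruffled border, fell with 12 libraries, 0 rose, and the median was −0.34. Plekhm1 was at 235 to 297 CPM in LSD1WT and 145 to 218 CPM in LSD1cKO, a 1.53-fold decrease without overlap. In the 10-library fit 22 of the 29 fell and 3 rose, against 9.75% and 14.4% of all genes, and the median was −0.79. Plekhm1 lost its call in 12 of 26 alternative fits. Ctsk, the main collagen-degrading protease of osteoclasts, was at 7278 and 7133 CPM in LSD1WT mandible cultures, 7599 and 5.9 CPM in ligated and 7875 and 17.1 CPM in unligated femur cultures, where the latter of each femur pair is replicate 2. In LSD1cKO it was at 2197 to 4326 CPM. Its log2 fold change was −0.40 (SE 1.2) with 12 libraries. Of 16 osteoclast transcription factors, none passed with 12 libraries and 6 fell without those 2. Of 4 osteoclast genes also measured by qRT-PCR, 0 were called lower with 12 libraries and 4 without those 2.

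Energy and sterol genes also depended on those libraries. None of 26 oxidative phosphorylation genes passed with 12 libraries (median −0.08), and 15 fell in the 10-library fit (median −0.42), against 9.75% of all genes. Of 23 cholesterol synthesis genes, only Hmgcs1, the HMG-CoA synthase, fell (1.89-fold, from 179 to 336 CPM to 90.9 to 143 CPM). All 23 lay below 0 with a median of −0.66, and without the 2 libraries the median was −0.10 with 4 lower and 1 higher. Of 26 lysosome and V-ATPase genes, Hexa, a subunit of hexosaminidase, was the one called with 12 libraries (log2 −0.61, adjusted p = 0.0405), and it lost its call in 20 of 26 alternative fits. With 10 libraries, 8 of the 26 fell and 6 rose. The plot of list medians shows both fits.

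**Figure D5:**
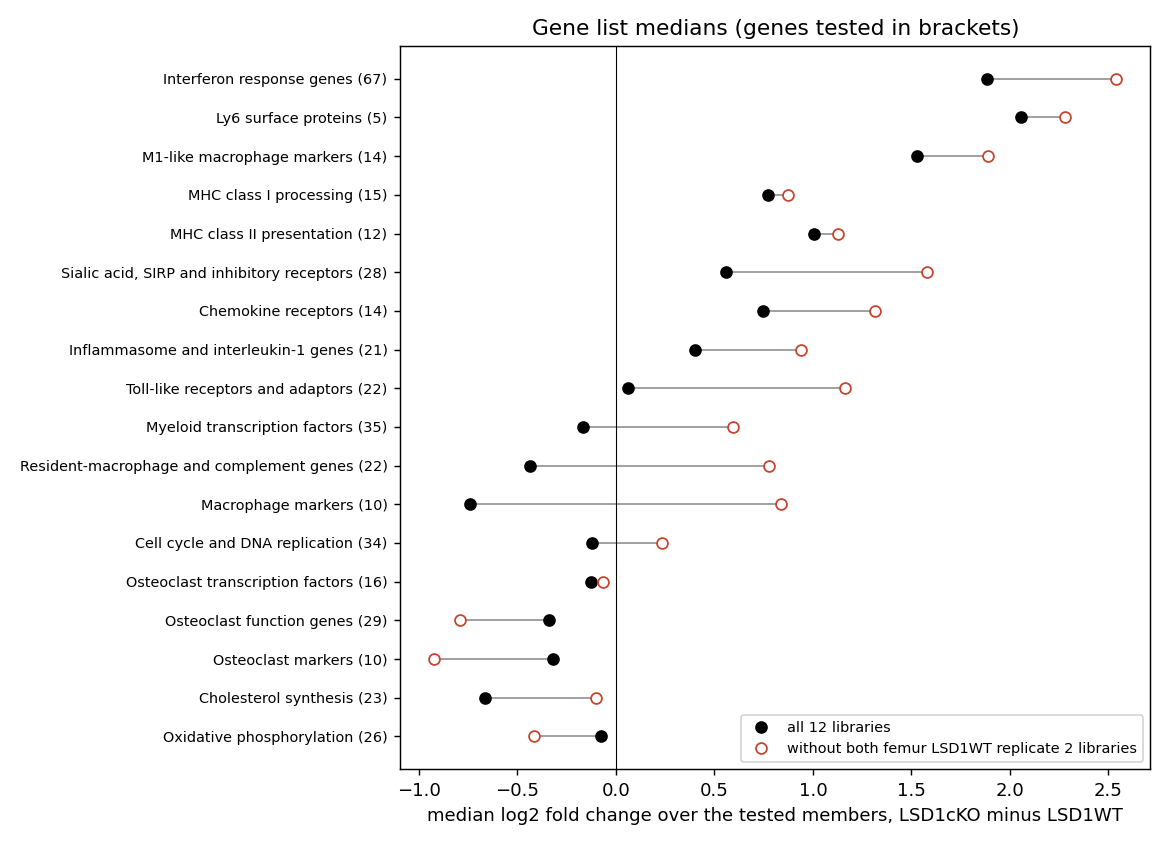
Median log2 fold change of LSD1cKO over LSD1WT for 18 gene lists, with all 12 libraries (filled) and without both femur LSD1WT replicate 2 libraries (open). The interferon list stays above 1.8 in both, the osteoclast function list moves from −0.34 to −0.79 and the macrophage markers from −0.74 to 0.84.

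Other lists had single calls or none with 12 libraries. Axl, a receptor kinase that clears dying cells, was the one called of 22 resident-macrophage and complement genes, rising 2.69-fold. The median of that list was −0.44 and turned to 0.77 in the 10-library fit, with 10 higher and 1 lower. Pltp, a phospholipid transfer protein, rose beside Abcg2 among 21 lipid efflux genes (log2 1.22, adjusted p = 0.0473) but lost its call in 15 of 26 alternative fits, and in the 10-library fit 12 of the 21 rose. Alox5 and Ptgs2 rose among 17 leukotriene and prostaglandin genes, of which 9 were higher and 1 lower in the 10-library fit. Sema4a, a semaphorin, rose among 16 semaphorin, plexin and Notch genes, Mmp25 among 13 metalloproteinase genes and Slc16a3 among 24 glycolysis and hypoxia genes. In the 10-library fit these lists had 5, 3 and 3 higher and 2, 2 and 2 lower. The shares over all genes in that fit were 14.4% higher and 9.75% lower.

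Of 34 cell cycle genes, 17 integrins, 8 Fc receptors and 2 cytochrome P450 genes, 0 passed with 12 libraries, and their medians were −0.12, 0.13, 0.01 and 1.10. In the 10-library fit 3, 5, 6 and 2 of them were higher and 1 integrin lower, with medians of 0.24, 0.04, 1.71 and 2.32. Of all genes, 14.4% were higher and 9.75% lower in that fit.

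Markers of other cells were present at low to high levels, and their part in the results was not tested. Of 20 neutrophil markers the summed level was 263 to 21403 CPM in LSD1WT and 4764 to 16472 CPM in LSD1cKO. Among them 1 member, Stfa2, was at 0 in all libraries. Cebpe was the one called of 18 tested, and in the 10-library fit 3 were higher and 1 lower. The highest LSD1WT sums, 21403 and 17835 CPM, were in the femur replicate 1 libraries, as were the highest osteoclast sums, 40298 and 37009 CPM. In LSD1cKO both sums were highest in unligated femur replicate 1, at 16472 and 28625 CPM. Which members carry the neutrophil sum was not tested, so it does not show how many neutrophils were present. The lowest LSD1WT neutrophil sums, 514 and 263 CPM, were in the ligated and unligated femur replicate 2 libraries, as were the lowest osteoclast sums. Monocyte markers summed to 79.7 to 1162 CPM in LSD1WT and 199 to 559 CPM in LSD1cKO, where Vcan, a proteoglycan, and Ms4a4c rose among 12 members. The highest LSD1WT sums, 1162 and 806 CPM, were in those 2 libraries, against 79.7 to 138 CPM in the other LSD1WT libraries. In the 10-library fit 5 of the 12 rose, against 14.4% of all genes. Vcan lost its call in 9 of 26 alternative fits. Stem and progenitor markers summed to 65.6 to 312 CPM and 202 to 447 CPM, with Ly6a and Procr higher among 14 tested. Again those 2 libraries held the highest LSD1WT sums, 312 and 203 CPM, against 65.6 to 96.3 CPM in the other LSD1WT libraries. In the 10-library fit 5 of the 14 rose. B cell markers summed to 29.9 to 76.6 CPM and 59.4 to 139 CPM, with Blnk, a B cell receptor adaptor, the only one called of 4 tested. In the 10-library fit 2 of the 4 were higher. Dendritic cell markers summed to 80.3 to 387 CPM and 103 to 335 CPM, and mast cell and basophil markers to 4.36 to 7.54 CPM and 7.26 to 11.2 CPM, with no member called with 12 libraries. The highest LSD1WT dendritic sums, 387 and 286 CPM, were in those 2 libraries. In the 10-library fit 2 of 11 tested dendritic and 3 of 4 tested mast cell and basophil markers were higher. Vwf, known from endothelium and platelets, was the one called of 9 tested megakaryocyte markers (2.15-fold, list median 0.08) and lost its call in 12 of 26 alternative fits. In the 10-library fit 2 of the 9 were higher. Kdr, a VEGF receptor, and Runx2 were the ones called of 11 tested stromal markers (Kdr 4.66-fold, list median −0.22). In the 10-library fit 2 of the 11 were higher and 2 lower, against 14.4% and 9.75% of all genes. T and NK cell markers summed to at most 18 CPM and stromal markers to at most 76.8 CPM in any library. Erythroid, eosinophil and megakaryocyte markers summed to 258 to 2257, 5.38 to 63.4 and 27.3 to 922 CPM in LSD1WT and to 514 to 1178, 20.3 to 48.5 and 42.4 to 102 CPM in LSD1cKO. Both femur LSD1WT replicate 2 libraries held the highest LSD1WT megakaryocyte sums, 922 and 454 CPM. They also held the lowest erythroid sums, 361 and 258 CPM, and eosinophil sums, 5.80 and 5.38 CPM.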

How the data were processed

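The deposited table held raw counts per gene for 57010 genes, which the authors made with HISAT2 2.1.0 and featureCounts on GRCm39, as the submitters' processing notes list; FastQC and edgeR were also listed. Groups came from the labels. Counts were tested with edgeR 4.0.16 (R 4.3.3) by the quasi-likelihood test with TMM scaling, edgeR's default filter on low counts and Benjamini-Hochberg adjustment. The model held culture and genotype over 12 libraries, and a fit with 1 coefficient per condition gave within-culture effects and the interaction. Levels are TMM-scaled CPM. The code was tested on simulated data. DESeq2 1.42.0 and limma 3.58.1 were alternatives. Each condition held 2 libraries, some from shared mice, which the main model treated as independent, and p-values measure only the spread between these samples. The members and the 46 gene lists were chosen with earlier results of these data known. Named genes were the 12 shared genes per direction with the smallest p, the 6 with the largest fold, Kdm1a, the genes of the study's qRT-PCR and up to 4 called members per list and direction, without predicted, mitochondrial, ribosomal or pseudogene symbols. Genes named outside that rule are stated as such or illustrate a list. The value of 1 interferon list gene is not reported here.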

Additional observations from a re-analysis of the deposited data

Results flagged for a closer look

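Of 96 sets of 6 libraries checked with Dixon's test at the 95% level (48 measures in each genotype), 8 had a library far from the other 5, and chance flags about 1 in 20. Each set spans 3 cultures. The value given is the gap to the nearest library divided by the whole range. In LSD1WT, Stk17b was highest in ligated femur replicate 2 at 301 CPM with the nearest at 182 CPM (0.727), and so was Tha1 at 4.67 against 3.23 CPM (0.714). Mandible LSD1WT replicate 3 was highest for Zbtb32 at 0.550 against 0.226 CPM (0.633), and mandible replicate 1 for Mall at 0.163 against 0.0367 CPM (0.775). In LSD1cKO, unligated femur replicate 2 was lowest for Bicd1 at 3.74 against 5.61 CPM (0.721), and mandible replicate 2 was highest for Slc16a3 at 71.4 against 56.2 CPM (0.701). Unligated femur replicate 1 was highest for Vegfb at 30.8 against 22.8 CPM (0.657) and for Btbd6 at 8.52 against 7.35 CPM (0.651).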

How the results depend on the processing

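All 544 called genes that could be tested kept their direction under every alternative, which covers 510 genes with a mean of at least 10 counts and 537 in the 8 femur libraries alone, but the number called varied, and the cause was not tested. For higher genes (462 with all libraries), DESeq2 gave 823, the mean of the 3 within-culture effects 294, quality weights (limma) 3210, the fit without both femur LSD1WT replicate 2 libraries 2307 and the 8 femur libraries alone 21. For lower genes (82) these gave 425, 29, 3075, 1560 and 1. The lower genes numbered 22 where the log2 fold change had to reach 1 in size, 27 with the mouse as a random block, 19 with the conflicting library as ligated femur and 23 with the mandible LSD1WT pair summed. The share of higher genes among the calls (84.9%) was 59.7% without both libraries, 65.9% by DESeq2 and 51.1% with quality weights. With the mouse as a random block, 355 genes were higher, and 371 of the 544 remained called. The consensus correlation within a mouse was 0.519 in that fit. With the replicate block, 366 genes were higher and 37 lower, and 372 of the 544 remained called. The numbers were not shown to pair the samples, since deviations of same-numbered genotypes correlated at 0.02 for mandible, −0.02 for ligated femur and 0.22 for unligated femur cultures. Between cultures of 1 genotype, ligated and unligated femur replicates correlated at 0.78 in LSD1WT, whose replicate 2 libraries both stood apart, and at 0.22 in LSD1cKO.

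Leaving out 1 library in turn gave 283 to 577 higher genes, 15 to 111 lower genes, 278 to 562 shared higher genes and 15 to 109 shared lower genes. The higher genes fell to 297 and 303 without mandible LSD1WT replicates 1 and 3, 303 without mandible LSD1cKO replicate 2, and 304 and 283 without ligated femur LSD1cKO replicates 1 and 2. The lower genes fell to 23 and 19 without mandible LSD1WT replicates 1 and 3, 22 and 24 without mandible LSD1cKO replicates 1 and 2, 18 and 15 without ligated femur LSD1cKO replicates 1 and 2, 49 without unligated femur LSD1WT replicate 1 and 31 without unligated femur LSD1cKO replicate 2. Shared lower genes (76) numbered 41 with no filter beyond 1 count. Without both femur LSD1WT replicate 2 libraries, 2087 genes were shared higher and 1427 shared lower. Each femur culture then held 1 LSD1WT library, so separation was a looser condition than with all libraries. Genes called in 2 cultures were again read in the third. In the mandible 878 of 927 higher and 133 of 137 lower were separated, against 37.6% and 31.0% of all genes. In the ligated femur 1278 of 1395 and 531 of 604 were, against 42.9% and 40.7%. In the unligated femur 2149 of 2804 and 1510 of 2143 were, against 28.9% and 29.7%. The interaction gave 0 genes in every fit of it that was run, with 21 to 1033 at an unadjusted p under 0.05.

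No named gene that was called reversed. Of 79, 2 to 19 were no longer called with 1 library left out (19 without ligated femur LSD1cKO replicate 2, 15 without mandible LSD1WT replicate 1), 19 with the conflicting library as ligated femur, 13 with the mandible pair summed, 10 with the mouse block, 6 with the replicate block and 61 of 77 with the 8 femur libraries alone. Calls were lost most often for Hexa, Pltp, Runx2, Ifit3, Lamb1, Oasl2, Plekhm1 and Vwf (12 to 20 alternatives each). Some uncalled genes changed sign. Nlrp3 was 0.0078 with RLE scaling, 0.0563 with upper-quartile scaling, 0.047 with no filter, 0.0341 with a mean of at least 10 counts, 0.1308 with the replicate block, 0.0158 by DESeq2, 0.2714 with the mouse block, 1.7177 with quality weights, 0.0709 by within-culture effects and 1.717 without both libraries, and −0.3046 to 0.8383 with 1 library left out. Hif1a was 0.0117 with the conflicting library as ligated femur, 0.1382 with quality weights, 0.2681 without both libraries and −0.0876 to 0.0906 with 1 library left out. Abca3 was 0.4006 with quality weights, 0.5519 without both libraries and −0.4853 to 0.0557 with 1 library left out, positive without unligated femur LSD1WT replicate 2. With the 8 femur libraries alone, Abcb1b was −0.1231 and Cyp27a1 −0.2062.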
